A study of Mus musculus with 69 samples.

Results

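Collagen chain genes encode the polypeptide chains, each named Col with a type number and a chain number, that wind into the triple helices of the collagens of the extracellular matrix. Every row whose gene name is Col, digits, a, digits was taken as a member, which gave 32 genes of 20717 gene names in the 3 deposited count tables. Of these, 17 have a row in the TKOM table, 31 in that of PRAD and NEPC, 28 in that of the genotypes, and 16 in all 3. The filter on low counts kept 15, 28 and 27 of these for testing. Another 13 genes of the same classes (Col1a1, Col1a2, Col5a2, Col6a1, Col6a5, Col6a6, Col8a2, Col10a1, Col13a1, Col19a1, Col21a1, Col24a1 and Col27a1) were not analysed here, so the chains of type I collagen are absent from every count below.

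Collagens differ in where they sit. Type XVII collagen is a transmembrane chain of the hemidesmosome, the junction by which basal epithelial cells hold on to the basement membrane, and type VII collagen forms the anchoring fibrils that tie that membrane to the stroma beneath. Type IV chains build the network of the basement membrane itself, with Col4a1 and Col4a2 in nearly every tissue and Col4a3 to Col4a6 in particular epithelia, and type XVIII collagen is a multiplexin, a basement membrane collagen that also carries heparan sulfate. Fibrillar collagens (types II, III, V and XI here) make the banded fibrils of connective tissue, and the fibril-associated types (IX, XII, XIV, XVI, XX and XXII) attach to such fibrils.

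The samples were mouse prostate organoids, epithelial cultures grown in 3 dimensions, sequenced as bulk polyA RNA in 23 groups of 3 libraries and 69 libraries in all. By its title the study is about the extracellular matrix and lineage plasticity in prostate cancer, with YAP, a transcriptional co-activator, and its DNA-binding TEAD partners as the link. The TKOM line was sampled in Matrigel, a basement membrane extract, and after 30 days in suspension. The PRAD line, given by its label as adenocarcinoma, was sampled at day 8 in the vehicle DMSO, with ARi, YAPi or NOTCHi alone, with ARi_NOTCHi, ARi_YAPi or YAPi_NOTCHi, and with COMBO, and at day 42 in COMBO, and the same table holds the neuroendocrine NEPC-1, NEPC-2 and also NEPC-3 lines. WT, PtP and TKO organoids were each sampled at day 8 in DMSO, YAPi_NOTCHi and COMBO. The labels give these codes only: they name neither the altered alleles nor the compounds and doses, nor what COMBO contains, nor how many clones or animals each line stands for. No day is given for the Matrigel samples or for the NEPC lines, so that time and matrix cannot be told apart in the first comparison, and nothing says whether the 3 libraries of a group are separate cultures. The p-values therefore measure the spread between libraries, which may be technical. In bulk samples, fewer cells of a type and less RNA per cell cannot be told apart.

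Library totals ran from 18627674 to 92271275 counts. Levels below are CPM, counts relative to the library total scaled by TMM factors within a table, as mean ± SD over n = 3 libraries, and are compared between groups of one table only, since the tables were scaled separately. Differences are log2 fold changes ± SE from edgeR's quasi-likelihood test, with p-values adjusted by Benjamini-Hochberg over every gene tested in that table and called under 0.05. The common coefficient of variation between libraries was only 3.63%, 3.85% and 2.37% in the TKOM, PRAD and NEPC, and genotype tables, so small differences pass this test. Between 13.1% and 46.2% of all genes were called in a given direction in the 31 comparisons. The summed epithelial markers (Epcam, Cdh1, keratins and Trp63) were high in every group. Their lowest sums were 1793 CPM in TKOM suspension, 2183 CPM in NEPC-3 and 3044 CPM in TKO YAPi_NOTCHi, each within its own table. The basal markers Krt5, Krt14 and Trp63 were near 0 at PRAD day 42 and in the NEPC lines. Of the fibroblast and mesenchyme markers, the tables hold 2, 4 and 3, and Dcn, which encodes the collagen-binding proteoglycan decorin, made up most of their sum, except at PRAD day 42 and in the NEPC lines, where Vim, a mesenchymal intermediate filament gene, was highest and the sum at most 4.74 CPM. Dcn was highest with PRAD ARi_NOTCHi in its table, at 1019 CPM on average. Pdgfra and Dpt, on the same list, stayed at or under 1.85 and 0.0550 CPM on average in every group that has them. Which cells the Dcn counts came from was not tested. Of the endothelial markers, the TKOM table holds only Pecam1, at 0.312 CPM in Matrigel and 12.8 CPM in suspension. The other tables hold 2 markers each, with sums of at most 2.97 CPM (NEPC-1) and 1.53 CPM (WT COMBO). Summed smooth muscle and pericyte markers were at 0.216 CPM in TKOM suspension. In the genotype table they reached 424 CPM in WT COMBO, where nearly all of it was Rgs5. Cd68 gave nearly all of the immune list, with values between 0.339 and 91.0 CPM over the 3 tables, which are not compared with each other. The second PRAD NOTCHi library stood apart from the other two: the chi-square of its counts per gene was 24.7 and 23.3 against them, where they gave 2.58 with each other and no pair in another group passed 11.99. Counts of collagen chain genes that rest on NOTCHi are given below with and without it, and those of partner lists with it only.

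Promoter windows of 250 bases upstream of the annotated start (RefSeq, GRCm38.p6) could be read for 25 of the 32 members, 28 windows in all. They were searched on both strands for the TEAD core GGAATG, the core TGGGAA of RBPJ, the DNA-binding partner of Notch, and the AP-1 site TGANTCA; the first 2 can overlap each other. Matches were present in 4, 9 and 0 of the 28 member windows, against 12.64%, 21.59% and 6.749% of all 32851 windows of that length. A match describes the letters only. The 6 windows shown belong to the hemidesmosomal and anchoring fibril chains, to the paired X-linked type IV chains, and to Col18a1 and Col9a1, which recur in the comparisons below. Col18a1 and Col9a1 each have a second window, not shown, which holds none of the 3 motifs. Capitals mark a TEAD or RBPJ core on either strand, and positions count upstream from the first transcribed base.
Col17a1, chr19:47692043-47692292, minus strand, RBPJ core at -181: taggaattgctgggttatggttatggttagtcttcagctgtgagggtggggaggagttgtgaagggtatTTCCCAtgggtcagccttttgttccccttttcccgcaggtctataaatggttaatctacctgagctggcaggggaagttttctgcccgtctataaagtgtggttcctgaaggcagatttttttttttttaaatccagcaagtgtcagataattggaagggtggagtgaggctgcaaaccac
Col7a1, chr9:108953336-108953585, plus strand, no core: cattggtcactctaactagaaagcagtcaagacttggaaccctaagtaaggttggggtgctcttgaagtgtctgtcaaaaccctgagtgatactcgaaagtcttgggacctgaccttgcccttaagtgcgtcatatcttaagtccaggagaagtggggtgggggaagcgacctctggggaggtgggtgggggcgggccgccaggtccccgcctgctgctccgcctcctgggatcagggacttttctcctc
Col4a5, chrX:141475169-141475418, plus strand, RBPJ core at -81: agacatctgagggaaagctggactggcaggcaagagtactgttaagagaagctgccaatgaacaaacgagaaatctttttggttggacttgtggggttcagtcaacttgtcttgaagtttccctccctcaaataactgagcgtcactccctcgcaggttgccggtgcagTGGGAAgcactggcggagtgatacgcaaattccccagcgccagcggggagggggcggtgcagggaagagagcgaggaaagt
Col4a6, chrX:141474077-141474326, minus strand, RBPJ core at -59: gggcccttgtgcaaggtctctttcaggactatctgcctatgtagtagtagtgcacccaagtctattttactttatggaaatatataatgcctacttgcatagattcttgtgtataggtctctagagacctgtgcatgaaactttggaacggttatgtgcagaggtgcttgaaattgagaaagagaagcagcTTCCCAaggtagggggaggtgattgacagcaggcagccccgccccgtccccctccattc
Col18a1, start of a shorter transcript, chr10:77113706-77113955, minus strand, TEAD cores at -104 and -54, RBPJ core at -63: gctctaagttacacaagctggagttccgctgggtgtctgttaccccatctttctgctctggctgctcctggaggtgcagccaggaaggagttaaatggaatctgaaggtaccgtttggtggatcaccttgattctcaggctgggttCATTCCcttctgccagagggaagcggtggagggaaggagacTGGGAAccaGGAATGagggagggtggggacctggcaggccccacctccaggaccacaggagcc
Col9a1, chr1:24177360-24177609, plus strand, RBPJ core at -53: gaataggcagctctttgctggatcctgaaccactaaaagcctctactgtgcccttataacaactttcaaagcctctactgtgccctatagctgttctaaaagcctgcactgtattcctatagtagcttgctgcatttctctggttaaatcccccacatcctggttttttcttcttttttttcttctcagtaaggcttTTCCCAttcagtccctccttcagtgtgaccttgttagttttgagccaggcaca

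Levels of different genes were compared only per kilobase of the merged exons of a gene. On that scale Col17a1 was the most abundant collagen chain in every group of untreated or day 8 organoids, at 21.6 ± 1.05 CPM per kb in TKOM Matrigel, 68.2 ± 3.13 in PRAD DMSO and 208 ± 4.64 in WT DMSO. It was not first in TKOM suspension, at PRAD day 42 or in any NEPC line. The first place there was held by Col9a1 in TKOM suspension (0.402 ± 0.0572 CPM per kb), by Col18a1 in NEPC-1 (7.44 ± 0.0665) and by the short-chain network collagen Col8a1 at day 42 (15.1 ± 0.583), in NEPC-2 (125 ± 2.32) and in NEPC-3 (20.1 ± 0.173). In TKOM suspension the second chain, the fibrillar Col11a1, stood at 0.374 ± 0.0777 CPM per kb, within 1 SD of Col9a1, and the order of the pair turns when the longest transcript serves as gene length. The mean of 28 of the 32 members reached at least 1 CPM in 1 or more groups, and that of 14 members at least 10 CPM. The 4 that never reached 1 CPM were Col2a1, Col5a3, Col6a2 and Col15a1, the other multiplexin.

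**Figure D1:**
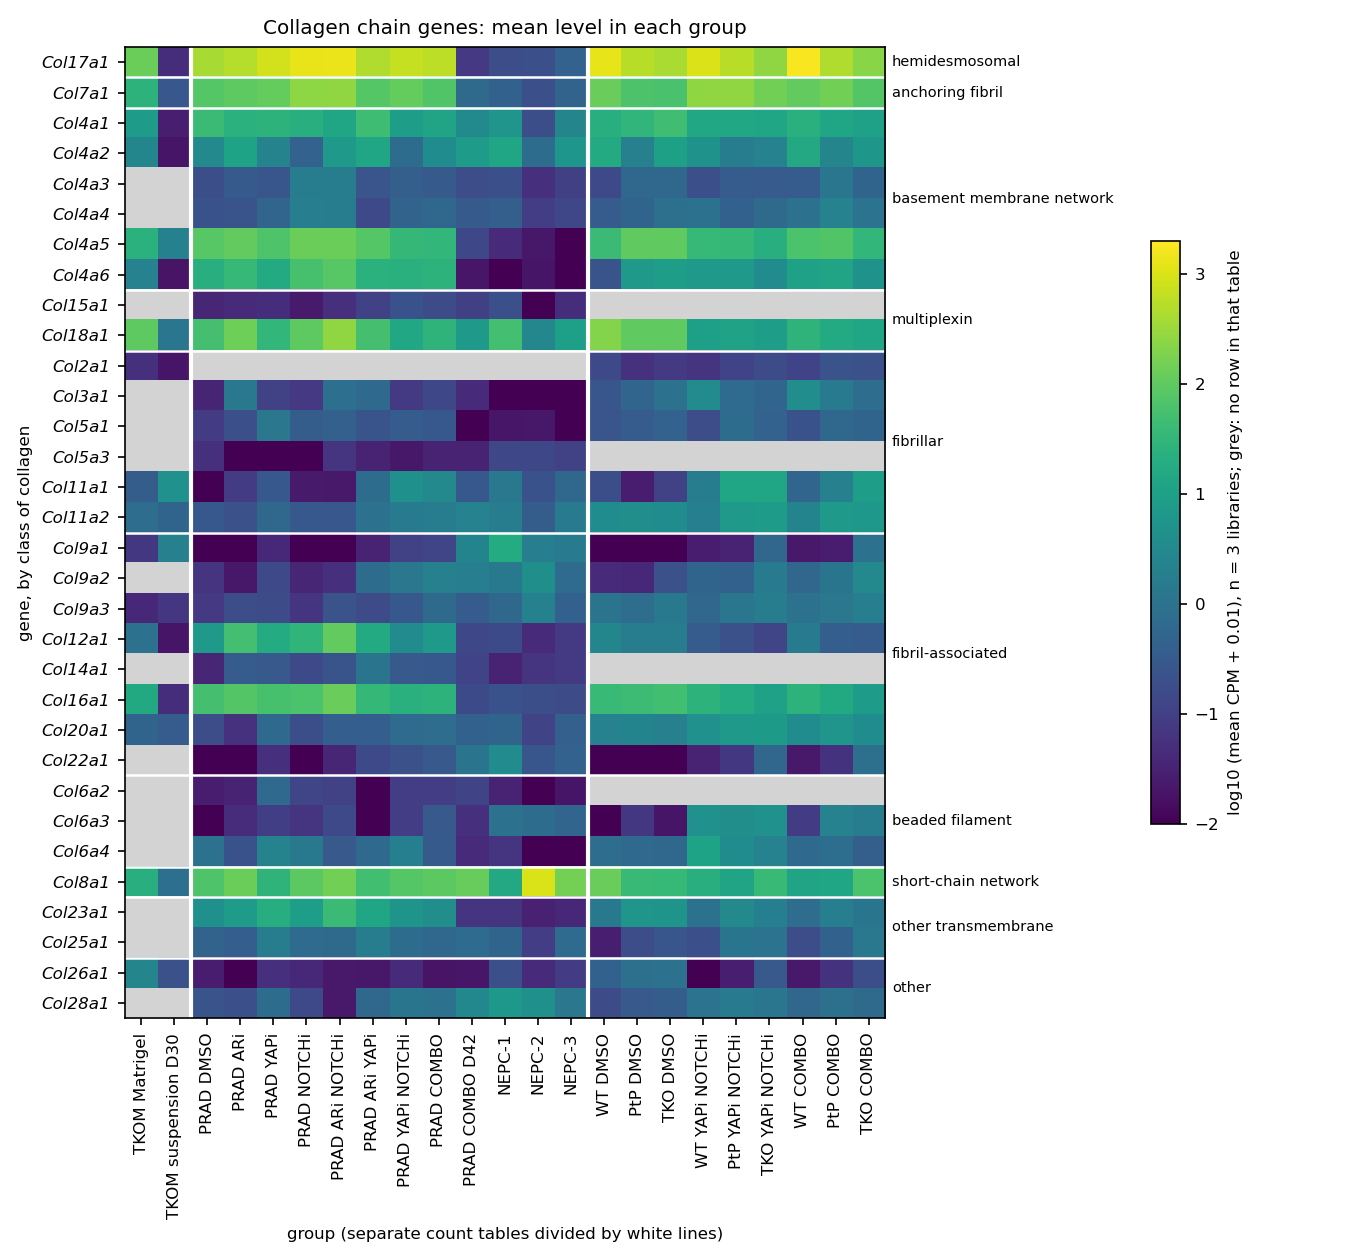
Mean level of each collagen chain gene (rows, grouped by class) in the 23 groups (columns) as log10 of mean CPM plus 0.01; grey means that the table has no row for the gene, and colours are to be compared along a row and within a table. Col17a1, Col7a1, Col4a5, Col4a6 and Col16a1 lie high on the scale in PRAD organoids at day 8 and near its lower end at PRAD day 42 and in the NEPC lines, while Col9a1 shows the opposite.

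The first comparison asked what changed in TKOM organoids when they left Matrigel for 30 days of suspension. The hemidesmosomal and basement membrane chains were nearly absent in suspension, and a pair of cartilage-type chains was higher. Col17a1 measured 130.1, 136 and 123 CPM in the 3 Matrigel libraries and 0.0543, 0.0311 and 0.0312 CPM in the 3 suspension libraries, a total of 4 counts. It fell by 11.55 ± 0.12 on the log2 scale (SE, adjusted p = 5.13e-21, edgeR). Of the 15 members that passed the filter, 11 fell and 2 rose, where 38.9% of all genes tested fell and 38.3% rose; 10 of those that fell had a mean of at least 1 CPM in Matrigel. The median log2 fold change of these members was -6.09 and that of all genes 0.00. That median is the value of Col12a1, which was -8.02 without the second suspension library. Members near 0 in suspension, such as Col17a1, passed the filter through their Matrigel level. The counts and the median of the members therefore lean towards falls in advance and are no measure of a general fall. The summed level of the collagen chain genes went from 335 CPM ± 17.7 to 12.4 CPM ± 0.912.

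Col7a1 went from 27.6, 26.7 and 25.6 CPM in Matrigel to 0.217, 0.156 and 0.406 CPM in suspension, and fell by 6.67 ± 0.15 on the log2 scale (SE, adjusted p = 1.29e-16, edgeR). Among the type IV chains, Col4a5 was at 27.4, 24.4 and 22.2 CPM in Matrigel and kept 1.90, 2.40 and 2.00 CPM in suspension, a fall of 3.56 ± 0.11 on the log2 scale (adjusted p = 1.12e-14, edgeR). Its neighbour Col4a6, which is transcribed the opposite way from a nearby start on the X chromosome, was left with 1 count in the 3 suspension libraries against 242 in Matrigel, a ratio of 0.00442 (95% counting interval 0.000112 to 0.0249). Col4a1 and Col4a2, the ubiquitous chains, had 2 and 1 counts in suspension against 902 and 296 in Matrigel, ratios of 0.00237 (95% counting interval 0.000287 to 0.00860) and 0.00362 (95% counting interval 9.13e-05 to 0.0203); both calls rest on these few counts. All 4 of these type IV chains were lower in every suspension library than in every Matrigel library.

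Col18a1 measured 99.99, 99.8 and 91.1 CPM in Matrigel and 0.977, 1.28 and 1.28 CPM in suspension (fell by 6.37 ± 0.08 on the log2 scale, adjusted p = 8.02e-20, edgeR). The fibril-associated Col16a1, found near basement membranes, went from 19.3, 16.6 and 14.1 to 0.0543, 0.0311 and 0.0312 CPM, and Col8a1 from 22.6, 22.3 and 20.9 to 1.25, 0.436 and 0.873 CPM. Col26a1 fell from a mean of 2.59 CPM ± 0.632 to 0.194 CPM ± 0.0735. Col12a1, a fibril-associated chain, had 1 count in suspension against 98 (ratio 0.0109 (95% counting interval 0.000274 to 0.0623)). The groups did not overlap for any of these.

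The exceptions were Col9a1 and Col11a1, chains best known from cartilage, where types IX and XI collagen assemble with type II. Col9a1 went from 0, 0.0322 and 0.159 CPM in Matrigel to 2.28, 2.12 and 1.72 CPM in suspension (rose by 4.90 ± 0.47 on the log2 scale, adjusted p = 4.79e-08, edgeR), and Col11a1 from 0.483, 0.290 and 0.318 to 4.67, 3.83 and 5.80 CPM (3.68 ± 0.25, adjusted p = 3.54e-10). Every suspension library was above every Matrigel library for both. Of the few Col9a1 counts in Matrigel most lie in the third library, and the change was 6.84 without it and 4.28 without the first. Col2a1, the type II chain itself, did not pass the filter and stood at 0.0410 and 0.0104 CPM. Col11a2 was at 0.779 CPM ± 0.162 and 0.496 CPM ± 0.143 (adjusted p = 0.0876).

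Partners of these chains were counted from lists, where 38.9% of all genes tested fell and 38.3% rose. All 8 hemidesmosome genes tested fell, among them the laminin chains Lama3 (-9.80 on the log2 scale) and Lamb3 (-8.74) and the integrin Itgb4 (-3.42), all adjusted p at or under 4.76e-19. Of the 9 basement membrane partners tested, 7 fell and 2 rose: the perlecan gene Hspg2 fell by 4.71 and Nid1 by 3.89, while Nid2 and Fras1 rose by 4.13 and 4.47. Of 23 collagen folding and crosslinking enzymes, 18 fell and 2 rose. Serpinh1, the collagen-specific chaperone HSP47, was at 6.73, 8.72 and 6.20 CPM in Matrigel and at 0 counts in all 3 suspension libraries, at least 239.8-fold lower when the 3 counts that a group total of 0 allows are used as floor. The fibroblast markers, which are nearly all Dcn, went from 11.2 CPM ± 0.736 to 0.00904 CPM, Cd68 from 91.0 to 3.42 CPM and Pecam1 from 0.312 to 12.8 CPM; their part in the result was not tested.

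**Figure D2:**
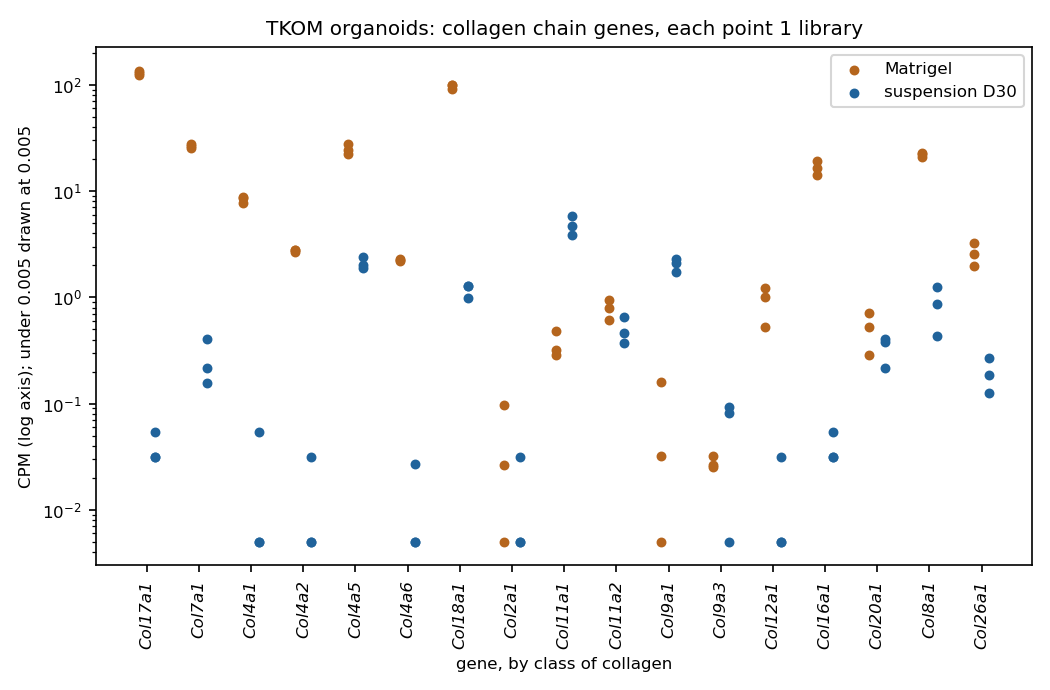
CPM (log axis) of collagen chain genes in the 3 TKOM Matrigel and 3 TKOM suspension libraries, 1 point per library, with values under 0.005 drawn at 0.005. The points of most chains lie far lower in suspension, and those of Col9a1 and Col11a1 lie higher.

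In the PRAD line, single and paired inhibitors were compared with DMSO at day 8. All 7 comparisons share the same 3 DMSO libraries, so their values are given side by side. The junction chains Col17a1 and Col7a1 and the paired chains Col4a5 and Col4a6 were highest with NOTCHi and ARi_NOTCHi, while Col4a1, Col4a2 and Col18a1 each followed a course of its own. Of the 28 members that passed the filter, 13 rose and 2 fell with ARi, where 27.1% and 27.4% of all genes did so. With YAPi 14 rose and 5 fell (background 35% and 26.9%), and with NOTCHi 13 rose and 2 fell (26% and 28%). The counts were 17 and 3 for ARi_NOTCHi (35.1% and 33.3%), 13 and 2 for ARi_YAPi (39.7% and 30.5%), 16 and 6 for YAPi_NOTCHi (40.2% and 35.1%) and 15 and 6 for COMBO (41.1% and 38.7%). The median log2 fold change of these members was 0.56, 1.25 and 0.75 for ARi, YAPi and NOTCHi, and 1.76, 1.15, 1.12 and 1.10 for the mixtures in the order above. With genes that had no count in one group set at their lower bound, the members' medians were 1.2, 0.64, 1.71 and 1.07 for YAPi, NOTCHi, ARi_NOTCHi and YAPi_NOTCHi, and those for ARi, ARi_YAPi and COMBO stayed as given. The median of all genes lay between -0.01 and 0.07 in these 7 comparisons. In DMSO, 20 of the 31 members with a row had a mean under 1 CPM, and 4 had 0 counts. The filter keeps such a gene for its level in other groups, and it has little room to fall. The counts and medians of the members therefore lean towards rises in advance and are no measure of a general rise.

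Col17a1 measured 390.1, 413 and 427 CPM in the 3 DMSO libraries. It stood at 1354, 1341 and 1328 CPM with NOTCHi and at 1405, 1363 and 1429 CPM with ARi_NOTCHi, rises of 1.71 ± 0.03 (adjusted p = 1.37e-35, edgeR) and 1.77 ± 0.03 (adjusted p = 7.84e-37) on the log2 scale. YAPi gave 892, 877 and 809 CPM, a rise of 1.07 ± 0.03 (adjusted p = 2.56e-28). In all 3 groups every library was above every DMSO library, and without the second NOTCHi library the NOTCHi rise was 1.71, still called. The other groups were nearer to DMSO and also passed the test (log2 fold changes from 0.21 to 0.70), with means of 508 CPM ± 4.18 for ARi, 475 CPM ± 5.21 for ARi_YAPi, 667 CPM ± 17.9 for YAPi_NOTCHi and 598 CPM ± 2.44 for COMBO. YAPi and NOTCHi together thus gave a lower level than either alone: the interaction term was -2.08 ± 0.05 on the log2 scale (adjusted p = 2.12e-33, edgeR). The ARi by YAPi term was also below 0, at -1.17 ± 0.05 (adjusted p = 2.25e-23).

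The anchoring fibril chain Col7a1 was likewise highest with NOTCHi and ARi_NOTCHi, but lowest with COMBO. Its 3 libraries were at 79.5, 81.7 and 77.7 CPM in DMSO, 264, 256 and 244 CPM with NOTCHi and 274, 251 and 275 CPM with ARi_NOTCHi. These rises were 1.68 ± 0.06 and 1.74 ± 0.06 (adjusted p = 1.08e-26 and 6.11e-28, edgeR), with no overlap with DMSO. The means were 95 CPM ± 2.32 with ARi, 109 CPM ± 10.4 with YAPi, 80.6 CPM ± 1.41 with ARi_YAPi, 114 CPM ± 9.05 with YAPi_NOTCHi and 72.0 CPM ± 1.41 with COMBO. The YAPi by NOTCHi term was -1.62 ± 0.08 (adjusted p = 2.81e-21).

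Their partners in the hemidesmosome were read in the same libraries. The shares of all genes called in each comparison with DMSO are those given above for the collagen chain genes. All 8 hemidesmosome genes tested rose with NOTCHi and with ARi_NOTCHi, and all 8 had a YAPi by NOTCHi term below 0. With NOTCHi, Lama3 rose by 1.90, the linker protein gene Plec by 1.57, Lamb3 by 1.32 and the linker Dst by 1.16 on the log2 scale. ARi gave 6 rises and 1 fall, YAPi 5 and 1, YAPi_NOTCHi 5 and 3, and COMBO 5 and 3. For all genes tested, 5701 of 18483 had a YAPi by NOTCHi term called below 0 (30.8%) and 28.2% one above 0. Among the 28 collagen chain genes these counts were 14 and 3, with a median of -1.43. Without the first NOTCHi library, 5 rather than 3 were above 0, and without the second 15 were below and 2 above 0. The NOTCHi comparison with DMSO gave 13 up and 2 down with or without that second library. Members low in DMSO enter the interaction counts too, and the size of their terms rests on few DMSO counts. That of Col5a1 was -4.19, but -3.57 without the first and -5.78 without the third DMSO library. The interaction counts and median are therefore no measure of the members as a set.

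The chains of the basement membrane network did not move as a block. Col4a5 was at 82.3, 80.4 and 84.4 CPM in DMSO and at 130.5 CPM ± 2.92 with NOTCHi and 130.3 CPM ± 5.32 with ARi_NOTCHi, rises of 0.66 ± 0.05 and 0.66 ± 0.05 on the log2 scale (adjusted p = 2.28e-14 and 9.76e-15, edgeR). It fell with YAPi_NOTCHi to 34.1, 34.5 and 34.3 CPM and with COMBO to 33.7, 30.7 and 33.4 CPM, by 1.26 and 1.34 on the log2 scale (adjusted p = 1.25e-22 and 8.82e-24). Col4a6, transcribed away from Col4a5 in the opposite direction, rose from 20.4, 21.3 and 22.7 CPM in DMSO to 55.7, 58.6 and 54.1 with NOTCHi and 87.9, 82.3 and 86.4 with ARi_NOTCHi (1.39 ± 0.06 and 1.99 ± 0.06, adjusted p = 3.34e-21 and 2.92e-27). With YAPi_NOTCHi it was at 23.4 CPM ± 1.90 (log2 fold change 0.12 ± 0.07, adjusted p = 0.0905) and with COMBO it rose to 26.6 CPM ± 0.647 (0.31 ± 0.06, adjusted p = 4.93e-05), where Col4a5 had fallen. The count ratio of Col4a5 to Col4a6 was 3.84 ± 0.164 in DMSO, 1.52 ± 0.0175 with ARi_NOTCHi, 1.47 ± 0.116 with YAPi_NOTCHi and 1.23 ± 0.0322 with COMBO, and the last 3 did not overlap with the first.

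Col4a1 and Col4a2 form one triple helix and are transcribed head to head on chromosome 8, yet their counts parted. Col4a1 was at 40.4, 42 and 41.6 CPM in DMSO and fell with ARi_NOTCHi to 13.5, 14.2 and 14.2, with YAPi_NOTCHi to 7.92, 10.7 and 9.71 and with COMBO to 13.1, 12.2 and 11.4 CPM (by 1.56, 2.13 and 1.76 on the log2 scale, adjusted p at most 8.07e-22, edgeR). In unscaled counts over 3 libraries Col4a1 was also lower with ARi and NOTCHi alone, at 2010 and 1450 against 2943 in DMSO. ARi_YAPi gave 3705 counts and YAPi 3151, but the first YAPi library was far deeper (77787396 counts in all). Col4a2 was at 2.46, 3.28 and 3.48 CPM in DMSO, rose with ARi to 12, 12 and 11.3 and with ARi_YAPi to 13.4, 13.2 and 12.8, and fell with NOTCHi to 0.664, 0.309 and 0.413 and with YAPi_NOTCHi to 0.864, 0.854 and 0.545 CPM. Those changes were 1.95, 2.10, -2.68 and -2.01 on the log2 scale (adjusted p at most 1.44e-10), with no overlap with DMSO. The ratio of Col4a1 to Col4a2 counts was 13.7 ± 2.38 in DMSO, 11.2 ± 1.5 with YAPi and 13.2 ± 4.35 with YAPi_NOTCHi, against 2.07 ± 0.119 with ARi, 1.97 ± 0.189 with ARi_NOTCHi, 3.48 ± 0.0300 with ARi_YAPi and 3.35 ± 0.486 with COMBO. With NOTCHi alone the 3 libraries held 1450 counts of Col4a1 and 32 of Col4a2. The exons of the pair overlap by 22 bases and the strand setting of the counting is not stated, so a few reads could be shared. Col4a3 and Col4a4, another pair, were low everywhere and rose with NOTCHi from 0.180 CPM ± 0.0496 to 1.68 CPM ± 0.383 and from 0.209 CPM ± 0.110 to 1.88 CPM ± 0.277 (3.17 ± 0.50 and 3.14 ± 0.46 on the log2 scale, adjusted p = 5.64e-07 and 1.60e-07); with ARi_NOTCHi they reached 1.77 and 1.76 CPM.

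**Figure D3:**
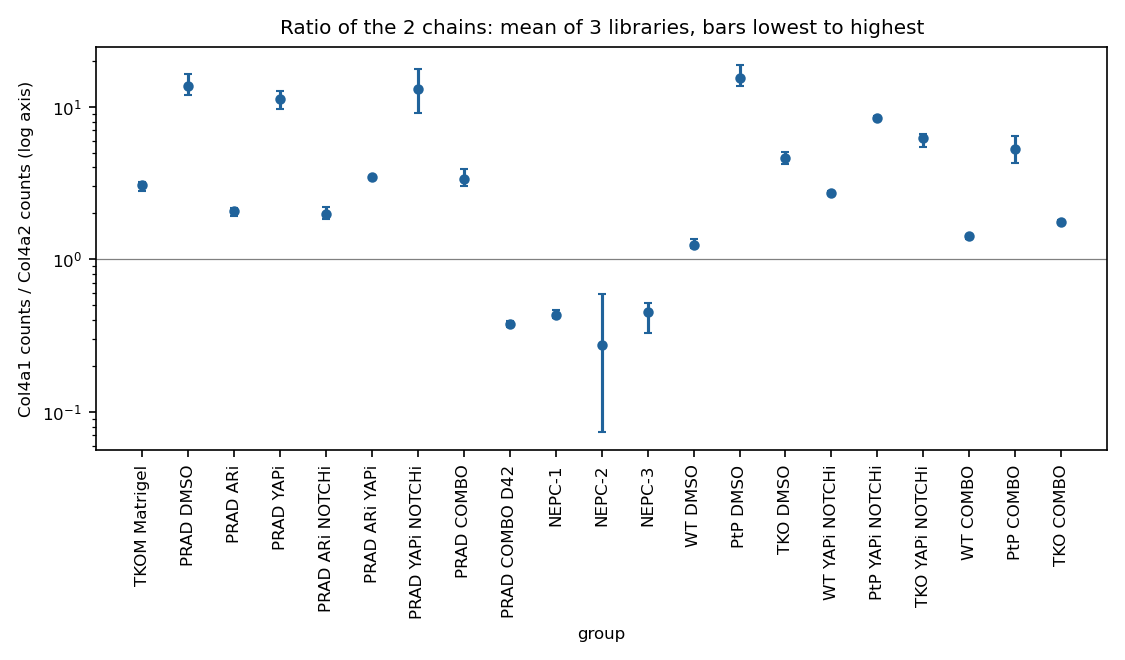
Ratio of Col4a1 to Col4a2 counts (log axis) per group, as the mean of 3 libraries with bars from the lowest to the highest; NOTCHi in PRAD and TKOM suspension are left out for low counts. PRAD groups with ARi lie well below DMSO, YAPi and YAPi_NOTCHi, and PRAD day 42 and the NEPC lines lie below 1.

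Among the multiplexins, Col18a1 was at 53.8, 55.6 and 56.8 CPM in DMSO. It rose to 138, 138 and 135 CPM with ARi and to 268, 254 and 276 CPM with ARi_NOTCHi (1.31 ± 0.05 and 2.26 ± 0.05 on the log2 scale, adjusted p = 6.32e-24 and 3.06e-33, edgeR). It fell to 14, 15 and 15.3 CPM with YAPi_NOTCHi (-1.90 ± 0.07, adjusted p = 3.51e-27). YAPi alone gave 31.9 CPM ± 3.81 and NOTCHi alone 98.2 CPM ± 5.61, on opposite sides of DMSO, and the YAPi by NOTCHi term was -1.96 ± 0.09 (adjusted p = 7.06e-23). Its printed window is that of a shorter transcript, and gene counts do not say which start was used. Col15a1, the other multiplexin, stayed at or under 0.201 CPM on average and did not pass the filter.

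The fibril-associated chains were led by Col12a1 and Col16a1. Col12a1, found in dense connective tissue, was at 7.80, 6.61 and 8.07 CPM in DMSO and reached 109, 103 and 108 CPM with ARi_NOTCHi (3.83 ± 0.07 on the log2 scale, adjusted p = 7.09e-37, edgeR). NOTCHi alone gave 29.9, 30.8 and 25.4 CPM, YAPi alone 17.4, 18.8 and 17.8 CPM and both together 3.66, 3.91 and 3.45 CPM. The first 2 rose (1.93 and 1.26) and the last fell (-1.03), which gave the YAPi by NOTCHi term of -4.22 ± 0.12 (adjusted p = 5.90e-30). Col16a1 went from 49.1, 58.0 and 53.4 CPM in DMSO to 125, 116 and 122 CPM with ARi_NOTCHi (1.18 ± 0.07, adjusted p = 3.37e-19) and down to 21, 24.5 and 24.1 CPM with YAPi_NOTCHi (-1.2 ± 0.08, adjusted p = 8.34e-18). The DMSO libraries overlapped with neither. Col14a1 rose with ARi_YAPi to 1.10 CPM ± 0.326 from 2 counts in DMSO, a ratio of 39.1 (95% counting interval 10.5 to 327). Col9a2, a type IX chain, rose from 0.0548 CPM ± 0.0478 to 1.27 CPM ± 0.237 with YAPi_NOTCHi and 2.07 CPM ± 0.292 with COMBO (4.4 and 5.10 on the log2 scale, adjusted p = 1.58e-10 and 2.23e-13).

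Of the fibrillar chains, Col11a1 had 0 counts in DMSO and 5.19, 4.30 and 4.18 CPM with YAPi_NOTCHi, at least 108-fold higher on the same floor (adjusted p = 3.02e-15, edgeR). COMBO gave 2.65, 3.23 and 3.44 CPM, at least 74.5-fold higher (adjusted p = 5.88e-14), while NOTCHi alone left 1 count and YAPi alone 30 counts in 3 libraries. Col11a2 rose with both as well, from 0.281 CPM ± 0.0269 to 1.43 CPM ± 0.149 and 1.68 CPM ± 0.123 (2.33 and 2.56 on the log2 scale, adjusted p = 6.18e-07 and 4.76e-08). Col5a1, a chain that nucleates fibrils, was at 0, 0.0438 and 0.178 CPM in DMSO and at 1.28, 1.70 and 0.717 CPM with YAPi (4.05 ± 0.60, adjusted p = 2.59e-07). The size of that rise depends on a few DMSO counts, and it was 3.43 without the first and 5.64 without the third DMSO library. Col3a1, the stromal type III chain, had 2 counts in DMSO and 108 with ARi, at 1.32 CPM ± 0.479, a ratio of 46.7 (95% counting interval 12.6 to 391); both DMSO counts lie in the first library. Col5a3 stayed at or under 0.134 CPM on average and did not pass the filter.

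The remaining classes held a few calls at 1 CPM or more. The beaded filament chain Col6a4 was at 0.917 CPM ± 0.302 in DMSO, rose with YAPi to 2.32 CPM ± 0.343 (1.34 on the log2 scale, adjusted p = 7.22e-04, edgeR) and was 0.294 CPM ± 0.160 with ARi_NOTCHi. Col6a2 had 1 count in DMSO and 0.625 CPM ± 0.0918 with YAPi (ratio 41.8 (95% counting interval 7.25 to 1674)), and Col6a3 stayed at or under 0.293 CPM on average at day 8. Col8a1 fell with YAPi from 69.5, 69.8 and 70.1 to 28, 26.2 and 27.8 CPM (-1.35 ± 0.04, adjusted p = 4.94e-28) and rose with ARi_NOTCHi to 148, 147 and 145 CPM (1.07 ± 0.04, adjusted p = 5.33e-27). The transmembrane chain Col23a1 rose from 5.23, 4.16 and 4.41 CPM in DMSO to 20.1, 19.9 and 19.5 with YAPi and 42, 40.7 and 38.6 with ARi_NOTCHi (2.10 and 3.13, adjusted p = 9.95e-21 and 1.12e-27), and its levels did not overlap with DMSO. Another transmembrane chain, Col25a1, rose from 0.480 CPM ± 0.273 to 1.65 CPM ± 0.192 with YAPi and 1.75 CPM ± 0.352 with ARi_YAPi. Col28a1 rose from 0.226 CPM ± 0.0746 to 1.15 CPM ± 0.218 with YAPi_NOTCHi (2.33, adjusted p = 2.73e-07).

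The summed level of the genes that fold and crosslink collagen was 2626 CPM in DMSO, 1510 CPM with YAPi_NOTCHi and 1181 CPM with COMBO. In the other day 8 groups it lay between 1763 CPM (ARi_NOTCHi) and 2732 CPM (YAPi), and P4hb was the highest gene in each group. With YAPi_NOTCHi, 19 of the 26 genes tested fell and 3 rose, where 35.1% and 40.2% of all genes did so. Among the falls were the lysyl hydroxylase Plod2 (-3.96 on the log2 scale), the procollagen protease Adamts2 (-3.52), the crosslinking oxidase Loxl2 (-3.20) and the collagen galactosyltransferase Colgalt2 (-2.67). With NOTCHi, 9 rose and 10 fell (26% and 28% of all genes), and with ARi_NOTCHi 11 and 9 (35.1% and 33.3%). Of 12 basement membrane partners, 6 rose and 2 fell with NOTCHi, 4 and 4 with YAPi_NOTCHi, and of 7 collagen receptors 2 rose and 2 fell with NOTCHi, and 0 and 3 with YAPi_NOTCHi. Summed collagen chain levels were 832 CPM ± 25.6 in DMSO, 2102 CPM ± 26 with NOTCHi and 2590.2 CPM ± 71.5 with ARi_NOTCHi, and Col17a1 was the highest chain in each. Dcn moved in the same direction, from 86.5, 83.7 and 82.1 CPM in DMSO to 349.7, 354 and 366 with NOTCHi and 1004, 1039 and 1015 with ARi_NOTCHi, and stood at 304 CPM ± 4.54 with ARi and 89.6 CPM ± 0.468 with YAPi. The summed level of its marker list was 84.8 CPM in DMSO and 1019.6 CPM with ARi_NOTCHi, with Pdgfra at 0.0658 and 0.0540 CPM. The smooth muscle and pericyte list summed to 2.53 CPM in DMSO, 2.41 with YAPi, 3.3 with YAPi_NOTCHi and 4.47 with NOTCHi, against 14.9 with ARi, 26.8 with ARi_YAPi, 54.3 with COMBO and 58.2 with ARi_NOTCHi, of which Rgs5 was 55.8 CPM. The part of either list in the collagen levels was not tested.

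COMBO and YAPi_NOTCHi at day 8 were also compared with each other. For Col7a1 DMSO lay between them, at 79.6 CPM against 114 with YAPi_NOTCHi and 72.0 with COMBO. Of the 28 members, 9 were higher and 4 lower with COMBO, where 20.6% and 21.9% of all genes were; without the third COMBO library 5 rather than 9 were higher. Col4a2 was higher with COMBO, at 0.864, 0.854 and 0.545 CPM with YAPi_NOTCHi and 4.18, 4.07 and 2.92 CPM with COMBO (2.28 ± 0.21 on the log2 scale, adjusted p = 2.02e-12, edgeR). Col6a4 was lower, at 0.307 CPM ± 0.116 against 1.91 CPM ± 0.491 (-2.63 ± 0.38, adjusted p = 3.52e-07). The other 2 interactions were smaller in count: 2 members lay above and 10 below 0 for ARi by YAPi (19.2% and 17.4% of all genes), and 3 above and 4 below for ARi by NOTCHi (18.7% and 20.6%), counts that were the same without the second NOTCHi library. The first was 1 above without the second DMSO library. Members low in DMSO enter these counts as well, which are no measure of the members as a set. In the ARi by NOTCHi term Col4a2 was at 1.96 ± 0.31 and Col12a1 at -0.90 ± 0.10 (adjusted p = 1.32e-06 and 4.03e-10). For that term, scaling by relative log expression (RLE) in place of TMM moved the share above 0 among all genes called from 47.56% to 35.69%.

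**Figure D4:**
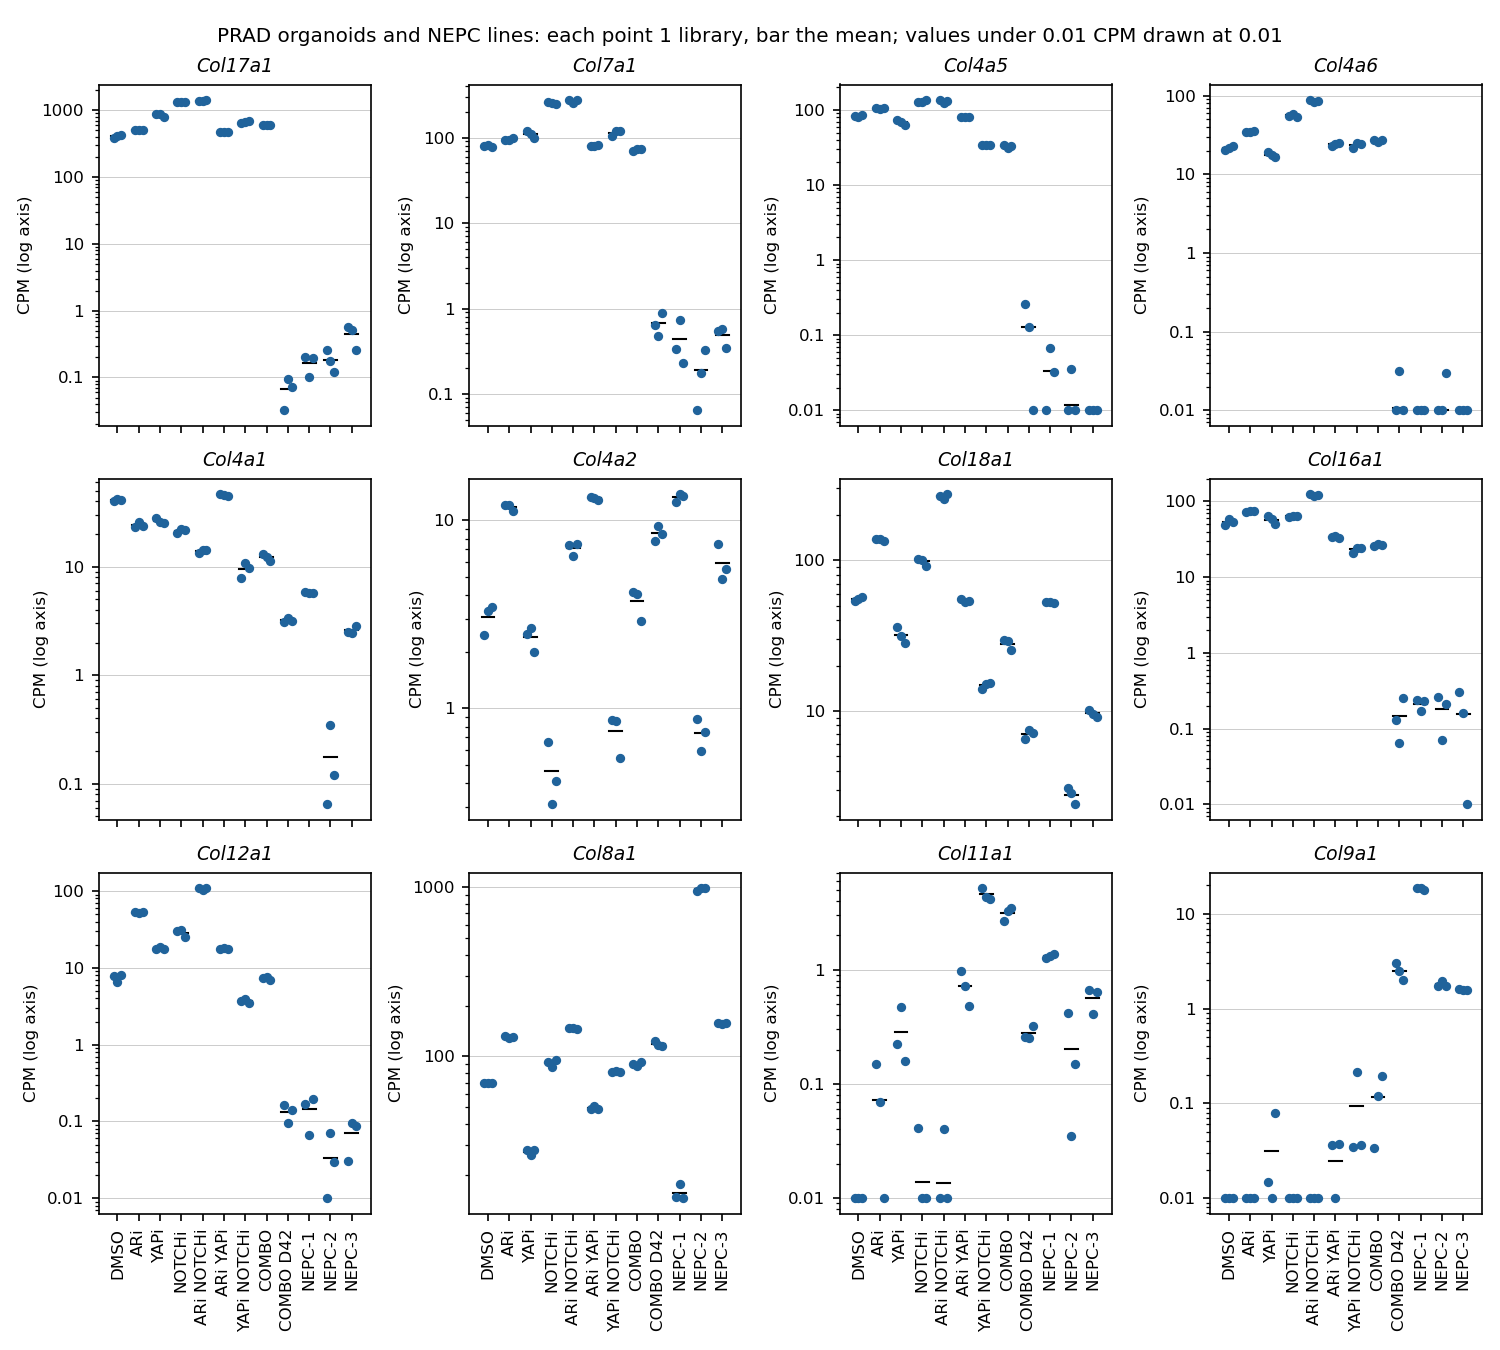
CPM (log axis, values under 0.01 drawn at 0.01) of 12 collagen chain genes in each PRAD and NEPC library, 1 point per library. Col17a1 and Col7a1 peak with NOTCHi and ARi_NOTCHi at day 8 and drop at day 42 and in the NEPC lines, and Col8a1 reaches its peak in NEPC-2.

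Between day 8 and day 42 in COMBO, and in the NEPC lines, the hemidesmosomal chain, the anchoring fibril chain and the Col4a5 and Col4a6 pair were near 0. At day 42, 13 of the 28 members were lower and 5 higher than at day 8, where 34.8% and 34.9% of all genes were. Against DMSO the counts were 11 lower and 10 higher (43.3% and 41.2%). Col17a1, at 601, 598 and 597 CPM on day 8, was at 0.0324, 0.0953 and 0.0713 CPM on day 42, with 6 counts in all (-13.05 ± 0.09 on the log2 scale, adjusted p = 6.08e-53, edgeR). Col7a1 went from 70.4, 73.0 and 72.7 to 0.647, 0.476 and 0.891 CPM (-6.75 ± 0.13, adjusted p = 2.06e-37). Both were abundant with COMBO at day 8 and under 1 CPM in every library at day 42. The COMBO groups differ in time and nothing else that the labels give, and no DMSO sample of day 42 is among them.

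The type IV pairs divided again. Col4a5 fell from 33.7, 30.7 and 33.4 CPM on day 8 to 0.259, 0.127 and 0 CPM on day 42 (-7.90 ± 0.16, adjusted p = 5.01e-35, edgeR; -8.83 without the first day 42 library), and Col4a6 from 2625 counts to 1 (ratio 0.000416 (95% counting interval 1.05e-05 to 0.00232)). Col4a1 fell from 13.1, 12.2 and 11.4 to 3.08, 3.37 and 3.17 CPM (-1.93 ± 0.10, adjusted p = 1.81e-20), whereas its partner Col4a2 rose from 4.18, 4.07 and 2.92 to 7.77, 9.34 and 8.45 CPM (1.2 ± 0.14, adjusted p = 3.25e-10). Their ratio passed from 3.35 ± 0.486 to 0.377 ± 0.0177. Col18a1 was at 6.51, 7.46 and 7.09 CPM on day 42 (-1.99 ± 0.08, adjusted p = 2.55e-25). Col16a1, Col12a1 and Col23a1 ended at 0.148, 0.133 and 0.0531 CPM.

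A smaller set was higher on day 42. Col9a1 had 0 counts in DMSO, 12 counts on day 8 of COMBO and 3.01, 2.51 and 2.00 CPM on day 42, at least 59.9-fold above DMSO against the floor of 3 counts (adjusted p = 2.89e-14, edgeR). Col22a1, another fibril-associated chain, was at 1.42, 0.826 and 1.07 CPM, at least 26.3-fold above DMSO (adjusted p = 8.65e-09), and Col28a1 at 2.95, 2.57 and 3.32 CPM against 0.957 on day 8 (1.62 ± 0.23, adjusted p = 4.33e-08). Col11a1, by contrast, fell from 2.65, 3.23 and 3.44 CPM on day 8 to 0.259, 0.254 and 0.321 CPM on day 42 (-3.47 ± 0.38, adjusted p = 9.74e-11). Col8a1 rose slightly, from 90.5 CPM ± 2.49 to 118 CPM ± 4.57 (0.39 ± 0.04, adjusted p = 7.58e-13).

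Averaged over the NEPC lines, 12 of the 28 members were lower and 10 higher than in PRAD DMSO, where 43.8% and 42% of all genes were, so the members' share is near that background. The largest falls were those of Col4a5, Col4a6 and Col17a1. Col17a1 was at 0.201, 0.101 and 0.195 CPM in NEPC-1, 0.259, 0.175 and 0.120 in NEPC-2 and 0.575, 0.506 and 0.260 in NEPC-3, against 390.1, 413 and 427 CPM in DMSO (-10.72 ± 0.05 on the log2 scale for the mean of the lines, adjusted p = 5.51e-60, edgeR). Col7a1 was between 0.190 and 0.487 CPM in the 3 lines (-7.84 ± 0.09, adjusted p = 2.63e-45). Col4a5 had 3, 1 and 0 counts in NEPC-1, NEPC-2 and NEPC-3 and Col4a6 0, 1 and 0, against 5871 and 1528 in DMSO. Col16a1 was at or under 0.210 CPM and Col12a1 at or under 0.143 CPM in each line. Against day 42 of COMBO, 8 were lower and 7 higher (31.7% and 33.2% of all genes), and Col17a1 differed by 1.78 ± 0.46 at levels under 1 CPM.

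The lines kept different collagens. NEPC-1 differed from the mean of the other lines by 14 members higher and 1 lower (30.9% and 25.7% of all genes), NEPC-2 by 4 and 10 (31.8% and 27.6%) and NEPC-3 by 6 and 6 (27.2% and 33.2%). Without the third NEPC-3 library, 2 members rather than 1 were lower in NEPC-1. NEPC-1 held Col18a1 at 52.5, 52.6 and 51.7 CPM, against 2.78 CPM ± 0.346 in NEPC-2 and 9.63 CPM ± 0.513 in NEPC-3 (3.34 ± 0.06 against the other lines, adjusted p = 8.96e-37, edgeR). It also held Col9a1 at 18.7, 18.7 and 18 CPM (3.44 ± 0.16, adjusted p = 1.39e-19), where the others had 1.80 CPM ± 0.132 and 1.59 CPM ± 0.0113. Col4a1 and Col4a2 were 5.86, 5.66 and 5.66 and 12.6, 13.8 and 13.5 CPM in NEPC-1, but 0.0647, 0.349 and 0.120 and 0.874, 0.594 and 0.750 CPM in NEPC-2, with NEPC-3 between them at 2.59 and 5.95. In every line Col4a2 exceeded Col4a1 in counts, with ratios of Col4a1 to Col4a2 of 0.431 ± 0.0300, 0.274 ± 0.275 and 0.451 ± 0.104, where PRAD DMSO had 13.7 ± 2.38.

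NEPC-2 was set apart by Col8a1, the short-chain collagen of vessel walls and of the basement membrane of the corneal endothelium. Its libraries measured 956, 989.9 and 985 CPM in NEPC-2, 14.7, 17.7 and 14.5 in NEPC-1 and 158, 156 and 158 in NEPC-3, and no values overlapped (4.30 ± 0.03 for NEPC-2 and -4.65 ± 0.04 for NEPC-1 against the mean of their other lines, adjusted p = 4.74e-52 and 2.04e-48, edgeR). Because of it the summed collagen level of NEPC-2, 996 CPM ± 18.5, exceeded those of NEPC-1 (125 CPM ± 1.90) and NEPC-3 (185 CPM ± 2.96) and lay above the 832 CPM of DMSO. NEPC-2 also had Col9a2 at 4.39 CPM ± 0.461 and Col9a3 at 2.17 CPM ± 0.147 (2.15 and 2.10, adjusted p = 3.69e-12 and 1.29e-06). Col28a1 was 6.71 CPM ± 0.941 in NEPC-1, 4.62 CPM ± 0.599 in NEPC-2 and 1.26 CPM ± 0.203 in NEPC-3, Col22a1 was 3.57 CPM ± 0.664 in NEPC-1 and at or under 0.454 CPM in the other lines, and Col11a1 reached 1.32 CPM ± 0.0470 in NEPC-1. Col6a3 stood at 0.930, 0.723 and 0.518 CPM in the 3 lines and Col3a1 at 0 counts in each. Col11a2 was 1.65, 0.363 and 1.5 CPM.

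The partner lists moved as follows, where 34.8% of all genes were lower on day 42 than on day 8 of COMBO. In the NEPC lines 43.8% of all genes were lower and 42% higher than in DMSO. All 8 hemidesmosome genes were lower on day 42 than on day 8, led by Lama3 (-7.57 on the log2 scale), Lamb3 (-7.35) and Itgb4 (-6.77), and all 8 were lower in the NEPC lines than in DMSO. Of 26 folding and crosslinking genes, 18 were lower and 8 higher in the NEPC lines than in DMSO. Serpinh1 was at 12.7, 12.4 and 14.3 CPM on day 8 of COMBO and at 0 counts on day 42 and in NEPC-1, with 1 and 4 counts in NEPC-2 and NEPC-3. Hspg2 was at 50.3 CPM on day 8 and 0.111 CPM on day 42, while Nid2 was higher in the NEPC lines than in DMSO (8.76 ± 0.83, adjusted p = 2.74e-12) and the collagen receptor Ddr2 too (4.33 ± 0.34, adjusted p = 2.92e-15). The fibroblast marker list summed to 191 CPM on day 8 of COMBO, 3.98 CPM on day 42 and 1.33 to 4.74 CPM in the NEPC lines, with Dcn at 168 and 0.672 CPM on days 8 and 42; its part in the result was not tested.

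In DMSO, WT, PtP and TKO organoids differed in a handful of abundant chains. PtP had 9 members higher and 7 lower than WT among the 27 that passed the filter, where 30.1% and 30.8% of all genes were. Col17a1 was at 1229.9, 1280.00 and 1234 CPM in WT, 511, 526 and 541 in PtP and 436, 426 and 431 in TKO (-1.25 ± 0.02 on the log2 scale for PtP against WT, adjusted p = 1.40e-35, edgeR). Col7a1 was at 116, 121 and 126, 65.3, 65.7 and 63.9 and 61.6, 61.3 and 58.5 CPM in the same order. Col18a1 fell from 206, 207 and 205 CPM in WT to 102, 104 and 99.4 in PtP (-1.02 ± 0.03, adjusted p = 2.77e-29). Col8a1 followed, from 119, 123 and 126 to 36.9, 40.8 and 40.1 CPM (-1.64, adjusted p = 8.62e-34). All 8 hemidesmosome partners were lower in PtP than in WT, with Dst at -1.06, Itga6 at -1.0 and Itgb4 at -0.89.

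Type IV chains went the other way in part. Col4a5 was at 42.7, 40.5 and 39.97 CPM in WT and 97.7, 99.7 and 102 CPM in PtP (1.28 ± 0.04 on the log2 scale, adjusted p = 1.83e-28, edgeR). Its divergent neighbour Col4a6 was almost silent in WT, at 0.368, 0.142 and 0.178 CPM, and stood at 5.17, 8.53 and 7.92 CPM in PtP (4.94 ± 0.27, adjusted p = 1.29e-19). Col4a2 was at 18.4, 18.3 and 16.4 CPM in WT, 2.02, 2.24 and 1.71 in PtP and 10.5, 10.05 and 9.79 in TKO, so that PtP was lowest (-3.15 ± 0.12 against WT and TKO 2.34 ± 0.12 against PtP, adjusted p = 8.61e-26 and 1.75e-18). Col4a1 was at 22 CPM ± 0.192, 30.3 CPM ± 1.68 and 46.7 CPM ± 2.76, and the ratio of Col4a1 to Col4a2 was 1.25 ± 0.0938, 15.5 ± 2.79 and 4.62 ± 0.439. The transmembrane chain Col23a1 rose from 1.37 CPM ± 0.163 in WT to 5.89 CPM ± 0.623 in PtP. Between TKO and PtP, 8 members were higher and 3 lower (13.1% and 13.4% of all genes), but these counts were 4 without the first PtP library or the second TKO library and 1 without the second PtP or the second TKO library. Dcn was at 5.93 CPM in WT, 160.4 in PtP and 182 in TKO, and its part in these differences was not tested.

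YAPi_NOTCHi and COMBO were then each compared with the DMSO libraries of the same genotype, so that both comparisons share those controls. Col18a1, Col26a1, Col12a1 and Col16a1 were lower with both mixtures in every genotype, and so were Col4a5 and Col4a1 except with COMBO in WT, while Col7a1 with YAPi_NOTCHi, Col11a1, Col9a2 and Col6a3 were higher. Col26a1 was low already in DMSO, at 0.42, 0.88 and 0.97 CPM in WT, PtP and TKO. The size of its changes depends on single libraries: with YAPi_NOTCHi in PtP it was -4.92 on the log2 scale, and -7.64 without the second treated library. With YAPi_NOTCHi, 11 of 27 members rose and 12 fell in WT, where 45.5% and 40.2% of all genes did so. In PtP 11 rose and 8 fell (44.9% and 40.6%), and in TKO 12 rose and 11 fell (45.7% and 40.6%). With COMBO the counts were 11 and 8 in WT (44.9% and 40.8%), 13 and 9 in PtP (44.8% and 40.2%) and 12 and 10 in TKO (46.2% and 41%). The members were thus called about as often as other genes, and the sizes and directions of single chains are what the data give.

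Col17a1 took a different course in each genotype. In WT it was at 1229.9, 1280.00 and 1234 CPM in DMSO, 1044, 1084 and 1056 with YAPi_NOTCHi and 1705, 1824 and 1779 with COMBO (-0.23 ± 0.02 and 0.50 ± 0.02 on the log2 scale, adjusted p = 6.71e-12 and 1.02e-22, edgeR). In PtP the same 3 groups were at 526 CPM ± 15, 529 CPM ± 10.7 and 477 CPM ± 9.30. In TKO it fell from 436, 426 and 431 CPM to 257, 258 and 260.3 and 232, 229.9 and 224 (-0.74 ± 0.03 and -0.91 ± 0.03, adjusted p = 2.34e-27 and 6.17e-31). The effect of COMBO was lower in PtP than in WT by 0.65 ± 0.03 and lower in TKO than in PtP by 0.77 ± 0.04 (adjusted p = 3.77e-20 and 2.84e-22). Col7a1 rose with YAPi_NOTCHi in each genotype, to 263, 277 and 264 CPM in WT, 256, 256 and 270.1 in PtP and 153, 147 and 154 in TKO (1.15, 2.00 and 1.32, adjusted p at most 3.09e-31), every library above DMSO. With COMBO it stood at 105 CPM ± 4.00, 151 CPM ± 4.11 and 77.0 CPM ± 1.06, a fall in WT (-0.20 ± 0.03, adjusted p = 9.05e-07) and a rise in PtP (1.21 ± 0.03, adjusted p = 1.83e-30) and in TKO (0.34 ± 0.04, adjusted p = 1.00e-11).

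Col18a1 fell under both mixtures in all genotypes. With YAPi_NOTCHi it was at 10.2, 9.63 and 9.61 CPM in WT, 11.6, 11.2 and 11.1 in PtP and 9.19, 9.54 and 9.29 in TKO, changes of -4.4, -3.17 and -3.41 on the log2 scale from DMSO means of 206, 102 and 99.1 CPM (adjusted p at most 9.89e-42, edgeR). With COMBO the changes were -2.88, -2.52 and -2.85 (adjusted p at most 5.40e-40). No treated library overlapped with a DMSO library of its genotype. The genotypes differed in how far Col18a1 fell with YAPi_NOTCHi: the effect was 1.23 ± 0.07 nearer to 0 in PtP than in WT (adjusted p = 7.63e-19).

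Col4a5 fell with YAPi_NOTCHi in WT from 41 CPM ± 1.45 to 34.7 CPM ± 1.61 (-0.25 ± 0.04 on the log2 scale, adjusted p = 2.25e-06, edgeR). In PtP and TKO it fell from 99.9 CPM ± 2.29 to 33.3 CPM ± 1.64 and from 99.8 CPM ± 3.34 to 21 CPM ± 0.690 (-1.59 ± 0.04 and -2.25 ± 0.04 on the log2 scale, adjusted p = 9.32e-33 and 3.16e-37, edgeR). In WT its level with COMBO was 62.8, 62.9 and 62.3 CPM against 42.7, 40.5 and 39.97 CPM in DMSO (0.61 ± 0.04, adjusted p = 3.41e-17). Col4a6 went from near silence in WT DMSO to 7.84, 6.79 and 6.31 CPM with YAPi_NOTCHi and 11, 11.7 and 10.1 CPM with COMBO (4.91 ± 0.27 and 5.55 ± 0.24, adjusted p = 2.42e-20 and 1.29e-23), and in TKO fell to 3.95, 3.38 and 3.56 CPM with YAPi_NOTCHi (-1.29 ± 0.13, adjusted p = 4.82e-12). Col4a1 fell with COMBO in PtP to 13.2, 13 and 13.4 CPM and in TKO to 10.7, 11.9 and 10.2 CPM (-1.2 and -2.10, adjusted p = 8.57e-20 and 2.60e-30). In WT Col4a1 fell with YAPi_NOTCHi to 13.3, 14.7 and 14.1 CPM (-0.64 ± 0.07, adjusted p = 1.98e-10). With COMBO it stood there at 22.6 CPM ± 2.13 against 22 CPM ± 0.192 (log2 fold change 0.04 ± 0.07, adjusted p = 0.568). Col4a2 fell with YAPi_NOTCHi in WT to 5.04, 5.40 and 5.01 CPM and in TKO to 2.19, 2.00 and 2.36 CPM (-1.77 and -2.21, adjusted p = 2.45e-21 and 6.60e-21). Col4a3 and Col4a4 reached 1.2 and 2.20 CPM with COMBO in PtP.

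The fibrillar and fibril-associated chains were mostly low in DMSO. Col11a1 had 1 count in PtP DMSO, in the second library, and measured 13.8, 12.9 and 14.7 CPM there with YAPi_NOTCHi (ratio 896 (95% counting interval 160.4 to 35414)). In TKO it rose from 0.0981, 0.0579 and 0.144 CPM to 13.2, 12.6 and 14 with YAPi_NOTCHi and 9.12, 8.51 and 10.3 with COMBO (7.10 ± 0.21 and 6.58 ± 0.22 on the log2 scale, adjusted p = 1.10e-29 and 7.40e-28, edgeR), and in WT to 1.68 CPM ± 0.0857 with YAPi_NOTCHi. Col9a1 and Col22a1 had 0 counts in DMSO of all 3 genotypes and rose in TKO, where Col9a1 reached 0.918, 1.12 and 0.805 CPM and Col22a1 0.625, 0.885 and 1.13 CPM with COMBO, at least 23.6-fold and 18.9-fold higher against the floor of 3 counts. In WT and PtP they stayed at or under 0.0607 CPM with either mixture. Col9a2 rose with COMBO to 0.552, 1.13 and 3.10 CPM in WT, PtP and TKO. Col3a1 rose in WT from 0.263, 0.142 and 0.357 CPM to 3.66, 3.64 and 3.57 with YAPi_NOTCHi and 4.44, 3.94 and 3.63 with COMBO (3.86 and 4.00, adjusted p = 4.4e-16 and 1.05e-16).

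Col12a1 fell with YAPi_NOTCHi in each genotype, from 2.71, 1.77 and 1.78 CPM to 0.336, 0.200 and 0.117 CPM in WT, PtP and TKO (-2.94, -3.03 and -3.91 on the log2 scale, adjusted p at most 4.32e-10, edgeR). With COMBO in WT Col12a1 went to 0.887, 1.52 and 2.40 CPM (-0.75 ± 0.23, adjusted p = 0.00341), which overlapped with DMSO, and that call was lost without the first WT COMBO or the first WT DMSO library (adjusted p = 0.0588 and 0.0779). Col16a1 fell in WT from 39.2 to 27 CPM with YAPi_NOTCHi and 26.6 CPM with COMBO (-0.54 and -0.56, adjusted p at most 2.46e-12). It fell with COMBO from 43.2 to 16.4 CPM ± 0.532 in PtP and from 49.7 to 7.91 CPM ± 0.444 in TKO (-1.41 and -2.68, adjusted p = 1.85e-25 and 1.78e-35), and its COMBO effect was lower in PtP than in WT by 0.84 ± 0.08 and in TKO than in PtP by 1.28 ± 0.08. Col5a1 stayed between 0.165 and 0.746 CPM in the 9 genotype groups, and its YAPi_NOTCHi effect was 1.5 ± 0.63 higher in PtP than in WT (adjusted p = 0.0387, edgeR). That call was lost with DESeq2 (adjusted p = 0.0698) and without the first or the third WT DMSO, the third PtP DMSO or any 1 of the WT YAPi_NOTCHi libraries (adjusted p = 0.0504 to 0.124). Col20a1, low in every table, rose with YAPi_NOTCHi to 4.85, 7.46 and 7.61 CPM from 2.18, 2.48 and 2.00 CPM.

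The beaded filament chains separated the 2 mixtures. Col6a3 had 0, 4 and 1 counts in WT, PtP and TKO DMSO, and YAPi_NOTCHi brought it to 4.56, 5.19 and 4.64, 3.95, 4.73 and 3.60 and 5.12, 4.00 and 5.38 CPM (called in each, adjusted p at most 5.46e-19, edgeR; at least 93.0-fold in WT). With COMBO it was at 0.0807, 0.0780 and 0.0773 CPM in WT, 2.10, 2.33 and 2.22 in PtP and 2.03, 1.58 and 1.77 in TKO. Col6a4 rose with YAPi_NOTCHi from 0.766 to 12.1, 11.8 and 11.8 CPM in WT and was 0.643 CPM ± 0.294 there with COMBO; in PtP and TKO it reached 3.83 and 2.25 CPM with YAPi_NOTCHi and 0.829 and 0.398 CPM with COMBO. No test between the 2 mixtures was run in these genotypes. Col8a1 fell in WT with YAPi_NOTCHi to 22, 22.5 and 22.4 and with COMBO to 12.5, 12.5 and 12 CPM (-2.46 and -3.31), and in PtP to 12.2 CPM ± 0.563 and 13.9 CPM ± 0.314. In TKO, where DMSO was at 35.6 CPM ± 0.521, it was 38 CPM ± 0.644 with YAPi_NOTCHi (adjusted p = 0.025) and rose to 61.8 CPM ± 1.12 with COMBO (0.79 ± 0.04, adjusted p = 4.48e-23).

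Differences between the effects in 2 genotypes were tested for 27 members. The YAPi_NOTCHi effect was higher in PtP than in WT for 9 and lower for 8 (27% and 30.4% of all genes), and higher in TKO than in PtP for 2 and lower for 10 (24.2% and 28.4%). For COMBO the counts were 7 and 8 (29.4% and 30.4%), then 2 and 12 (25.7% and 31.2%). The last count of 2 was 1 without the first PtP COMBO or the first TKO COMBO library. Effects lower in TKO than in PtP included Col17a1, Col7a1, Col4a1, Col4a2, Col18a1 and Col16a1 under both mixtures. Hemidesmosome partners fell with YAPi_NOTCHi in 7 of 8 in WT and in 8 of 8 in PtP and TKO. Of all genes, 40.2%, 40.6% and 40.6% fell with YAPi_NOTCHi in WT, PtP and TKO, and 40.8%, 40.2% and 41% with COMBO. With COMBO 5 fell and 1 rose in WT, 7 fell in PtP and 8 in TKO, among them Lamb3 in TKO (-2.68 on the log2 scale). Of 25 folding and crosslinking genes, 14, 15 and 16 fell with YAPi_NOTCHi in WT, PtP and TKO, and Loxl2 fell by 5.78, 5.27 and 3.53 on the log2 scale. Dcn rose in WT from 5.93 to 346 CPM with YAPi_NOTCHi and 182 CPM with COMBO (5.87 and 4.94 on the log2 scale), and fell in PtP to 54.1 and 50.4 CPM and in TKO to 39.99 and 19.8 CPM; Pdgfra stayed at or under 1.2 CPM. The pericyte marker Rgs5 rose with COMBO to 423, 253 and 90.3 CPM in WT, PtP and TKO, from at most 1.65 CPM in DMSO, and was at 125, 28.4 and 8.07 CPM with YAPi_NOTCHi; the part of either marker in the collagen levels was not tested.

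**Figure D5:**
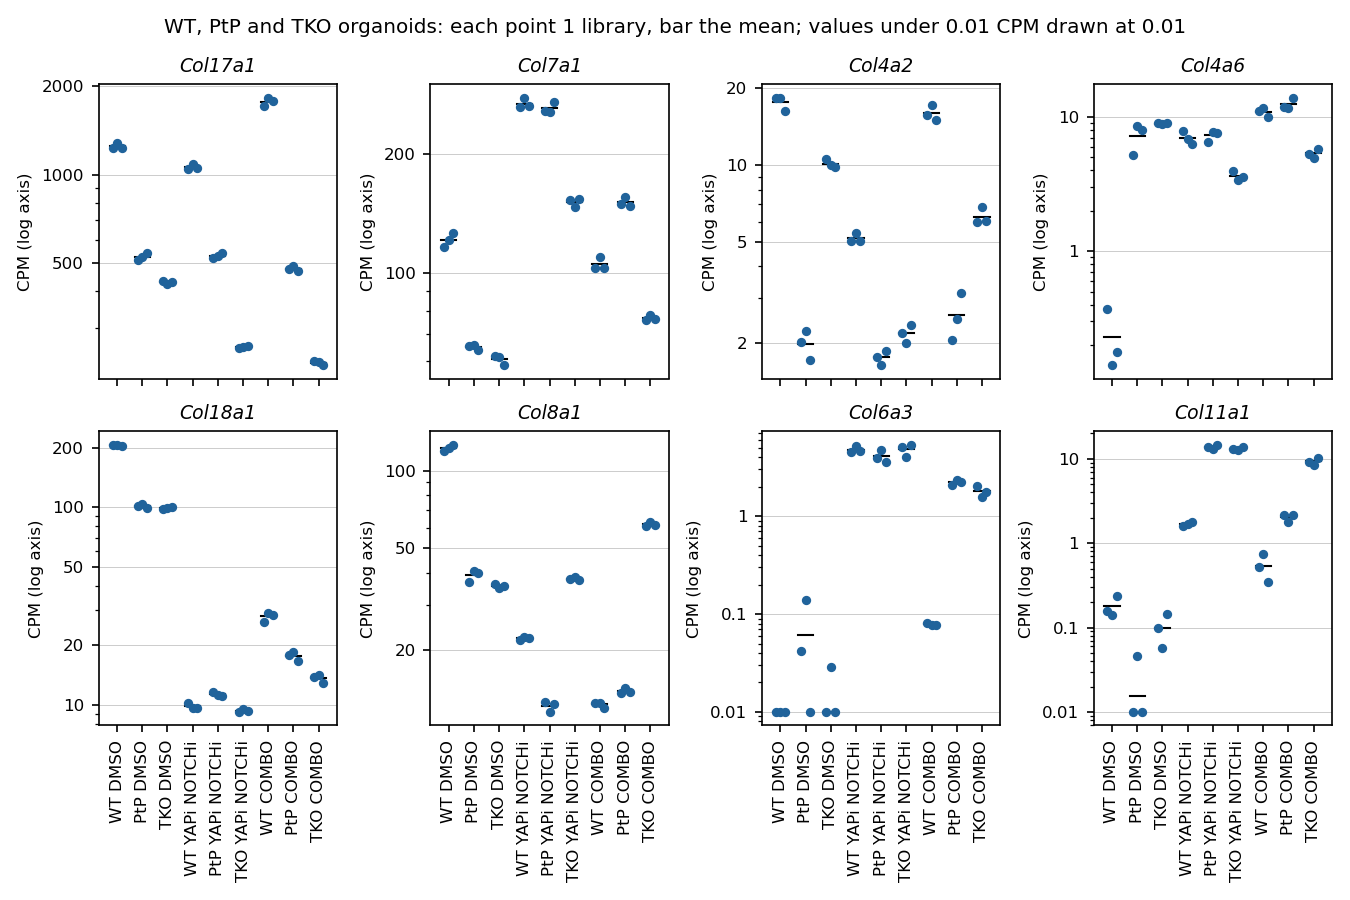
CPM (log axis) of 8 collagen chain genes in WT, PtP and TKO organoids at day 8 in DMSO, YAPi_NOTCHi and COMBO, 1 point per library. Col18a1 drops with both mixtures in every genotype, Col7a1 rises with YAPi_NOTCHi in every genotype, and with COMBO Col17a1 rises in WT and falls in TKO.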

How the data were processed

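Bulk polyA RNA-seq of 69 mouse prostate organoid libraries was read from 3 tables. They hold estimated counts per gene as the authors deposited them, judged unscaled from their unequal library totals, on mm10 per the submitters' processing notes. Aligner, counter, strand setting and annotation: not given in the sources used here. Lines without a gene name (10, 11 and 12 in the TKOM, PRAD and NEPC, and genotype tables, at most 0.0115% of a library) were left out, lines that share a name were summed (15, 16 and 17 names), and values were rounded to whole counts. No deposited column was left unmapped (0). The 3 tables were fitted separately, each over all its groups, with edgeR 4.0.16 and limma 3.58.1 in R 4.3.3: filterByExpr with a minimum count of 10, TMM scaling, quasi-likelihood F-tests, 2-sided, Benjamini-Hochberg adjusted over all genes kept and called under 0.05, in 31 comparisons. The tests were first tried on simulated data. A gene at 0 counts in a group is given a bound from a floor of 3 counts over that group, and counts of 1 to 3 a ratio with a 95% exact interval, both covering counting error only. Same-numbered replicates were not linked (see the limits below). Alternatives were RLE scaling, no filter on low counts, DESeq2 1.42.0, a replicate block, leaving out each library, and the longest transcript as gene length.

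The collagen classes, partner lists and markers were chosen with earlier results of these data known. Named in each comparison are the hemidesmosomal, anchoring fibril, basement membrane, multiplexin and main fibrillar and fibril-associated chains, plus any member called with at least a 2-fold change and 1 CPM in a group. Up to 4 called genes of largest change are named per partner list; the result of 1 such gene is not reported here. A fold change of an interaction or a difference of effects is named for chosen chains only; a called count includes genes of low level. Gene lengths came from merged exons of GENCODE gene models on GRCm38, which matched 32 of 32 members, and promoter windows from RefSeq on GRCm38.p6.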

Additional observations from a re-analysis of the deposited data

Results flagged for a closer look

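The effects of YAPi_NOTCHi and COMBO on 8 chains were compared between genotypes by a test of the difference itself, as the log2 effect in one genotype minus that in the other (edgeR, adjusted over all genes). For YAPi_NOTCHi, 7 of 8 differed between PtP and WT, 5 higher and 2 lower in PtP: Col16a1 -0.71, Col17a1 0.24, Col18a1 1.23, Col4a1 -0.41, Col4a2 1.57, Col5a1 1.5 and Col7a1 0.85. The Col5a1 call did not hold with DESeq2 or without any 1 of 6 libraries (adjusted p = 0.0504 to 0.124). Between TKO and PtP 6 of 8 differed, all 6 lower in TKO: Col16a1 -0.94, Col17a1 -0.74, Col18a1 -0.24, Col4a1 -0.74, Col4a2 -2.01 and Col7a1 -0.68.

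For COMBO, 7 of 8 differed between PtP and WT, 3 higher and 4 lower in PtP: Col12a1 -1.45, Col16a1 -0.84, Col17a1 -0.65, Col18a1 0.35, Col4a1 -1.24, Col4a2 0.45 and Col7a1 1.41. The Col4a2 call was lost without the third PtP COMBO library (0.30, adjusted p = 0.147) and without the third PtP DMSO library (0.36, adjusted p = 0.105). Between TKO and PtP 6 of 8 differed, again all 6 lower in TKO: Col16a1 -1.28, Col17a1 -0.77, Col18a1 -0.33, Col4a1 -0.90, Col4a2 -1.02 and Col7a1 -0.87. Col17a1, Col4a1, Col4a2, Col7a1, Col16a1 and Col18a1 thus had effects lower in TKO than in PtP under both mixtures, which share the DMSO libraries of each genotype. Among all genes tested, 28.4% and 31.2% were lower in TKO than in PtP for YAPi_NOTCHi and COMBO. Between PtP and WT, 27% of all genes were higher and 30.4% lower in PtP for YAPi_NOTCHi, and 29.4% and 30.4% for COMBO. The 8 chains were chosen ones, and the counts over all members tested are given above. No cause was tested.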

How the results depend on the processing

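No count of collagen chain genes that rose or fell moved by more than 1.5 times under RLE scaling, without the filter, with DESeq2 or with the replicate block. Leaving out 1 library moved 7 such counts: COMBO above YAPi_NOTCHi 5 to 9 (9 with all libraries), NEPC-1 below the other lines 1 to 2 (1), YAPi by NOTCHi above 0, 2 to 5 (3), ARi by YAPi above 0, 1 to 2 (2), TKO above PtP 4 to 7 (8), TKO below PtP 1 to 2 (3) and the COMBO effect of TKO above PtP 1 to 2 (2). Of 843 log2 fold changes of single members, DESeq2 brought 14 past the threshold and lost 14, RLE scaling 12 and 2, no filter 0 and 1, and the replicate block 1 and 3. Leaving out libraries brought in 86 and lost 197 of 6798, and no direction reversed among the called. Mean CPM moved by more than 1 SD for 32 of 658 values under RLE scaling, for a cause that was not tested. CPM per kb moved as much for 300 of 658 values with the longest transcript as gene length. There the same CPM is divided by another length, and nothing else differs. Same-numbered libraries deviated with correlations of -0.168 to 0.129, and 0 of 6, 12 of 36 and 14 of 27 libraries correlated best with their own number. In the genotype table the mean correlation was 0.0064 for same numbers and -0.0032 for other numbers. The labels do not say whether the numbers pair samples, and these weak correlations cannot settle it. The replicate block is given here only. Chains with a handful of counts, such as Col2a1, Col5a3, Col6a2 and Col15a1, are limited by depth.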
